A study of Rattus norvegicus with 38 samples.

Results

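Ptgds encodes lipocalin-type prostaglandin D synthase and is followed here as 1 gene, Ensembl ID ENSRNOG00000015550, among the 32883 IDs of a count table. It was chosen by its measured values: its vessel level was far above its neuron level in these same libraries, so that contrast is described below without a test. The enzyme turns the common prostaglandin precursor made by the cyclooxygenases into prostaglandin D2, and the protein is also secreted as a carrier of small lipophilic molecules. In the brain it is known from the meninges, the choroid plexus, cells around vessels and oligodendrocytes, it is abundant in cerebrospinal fluid, and the prostaglandin it makes is known for promoting sleep. The pairing of the ID with the name Ptgds came with the choice of the gene, because neither the count table nor the reference table used here links Ensembl IDs to names. For the same reason the cyclooxygenases, the prostaglandin receptors and the markers of vessel, meningeal and glial cells could not be looked up, and the cells in the captures were not checked by markers.

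The material was laser-microdissected from the frontal cortex of 19 rats, with 1 library of blood vessels and 1 library of neuron clusters per rat. The rats were Wistar or SHRSP, the stroke-prone line of the spontaneously hypertensive rat, and no further allele or treatment is labelled for any group. The early stage covered 24 to 25 weeks of age (5 Wistar and 5 SHRSP rats) and the late stage 32 to 34 weeks (4 Wistar and 5 SHRSP rats), which gives 8 groups of material, strain and stage. Totals were 1198386 to 4963429 counts per library. A vessel capture holds all cell types of the vessel wall and whatever clings to it, and in such bulk material fewer cells of a type cannot be told apart from less RNA per cell.

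The libraries fell into sets that the groups do not fully explain. The share of the most abundant ID, ENSRNOG00000043866, in the neuron library of a rat was at most 10.7% in 8 rats, called the low-share set here, and at least 20.4% in the other 11, the high-share set. All 9 late rats were in the high-share set. Of the early rats only Wistar 349 and SHRSP 383 were, so stage and library set nearly coincide. The vessel libraries of early rats also held fewer IDs with a count, with medians of 6543 in Wistar and 6088 in SHRSP, against 11042.5 and 10594 in the late groups. This followed the library set without overlap: 4104 to 8752 IDs in the low-share rats and 9875 to 11974 in the high-share rats. The early high-share rats 349 and 383 held 11754 and 10207.

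In vessels Ptgds was among the most abundant transcripts of every library. It ranked between 9th and 74th of all IDs by count, with a median rank of 19, and was read 2464 to 20876 times per library. Levels are given as CPM, the count relative to the library total in the usual unit, scaled by TMM factors over the 38 libraries, so that vessels and neurons share 1 scale. In early SHRSP vessels the 5 rats measured 3139 (rat 377), 3614 (386), 3888 (383), 7041 (380) and 8978 CPM (374). In early Wistar vessels they measured 942 (340), 1430 (343), 1564 (349), 1761 (346) and 5190 CPM (368). Early SHRSP rats were thus all above 4 of the 5 early Wistar rats, and rat 368 alone lay inside their range. In late Wistar vessels the levels were 1203 (353), 1565 (351), 2235 (350) and 2583 CPM (354). In late SHRSP vessels they were 1187 (384), 1616 (381), 2365 (378), 2438 (382) and 2485 CPM (379). The late groups overlapped almost completely, and both lay below every early SHRSP rat.

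In neurons the gene was a transcript of modest level, ranked between 975th and 7196th by count with 37 to 477 counts per library. Early SHRSP neurons held 23.1 (383), 46.8 (374), 48.6 (380), 55.3 (386) and 59.4 CPM (377). Early Wistar neurons held 35.7 (340), 35.8 (343), 37.8 (368), 46.3 (346) and 153.1 CPM (349). The neuron library of rat 349 stood at 2.58 times the next highest neuron library of any group. Late Wistar neurons held 19.8 (353), 25.3 (350), 29.1 (354) and 42.3 CPM (351), and late SHRSP neurons 10.5 (381), 14.9 (378), 21.9 (384), 27.4 (379) and 28.5 CPM (382). Counting error was small in vessels, where the lowest library, rat 340, had 935.7 CPM of its unscaled total with a 95% Wilson interval of 899.5 to 973.4. In neurons it was wide enough for neighbouring rats to overlap: rat 381 with 37 counts had 9.91 CPM of its unscaled total with an interval of 7.19 to 13.7, which overlapped the 11.0 to 19.4 of rat 378. These intervals cover counting error only.

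**Figure D1:**
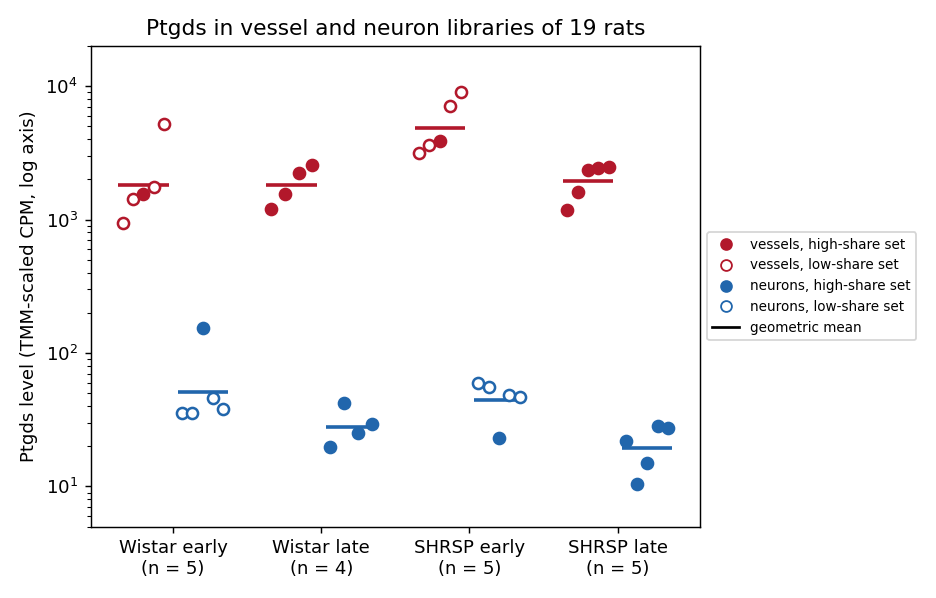
Ptgds level (TMM-scaled CPM, log axis) in the vessel library (red) and the neuron library (blue) of each rat, by strain and stage; open points are rats of the low-share set, filled points the high-share set, and lines are geometric means. Vessel levels run from 942 to 8978 CPM and neuron levels from 10.5 to 153.1 CPM, and no vessel library reaches down to a neuron library.

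By group mean, vessel levels ran from 5332 ± 2553 CPM in early SHRSP over 2177 ± 1711 in early Wistar and 2018 ± 585 in late SHRSP to 1896 ± 626 in late Wistar (SD, n = 5, 5, 5 and 4). The last 3 groups do not differ beyond their spread. In neurons the order was 61.8 ± 51.3 CPM in early Wistar, 46.6 ± 14.1 in early SHRSP, 29.1 ± 9.55 in late Wistar and 20.6 ± 7.82 in late SHRSP. By median, which the single library of rat 349 does not move as much, early SHRSP neurons stood first at 48.6 CPM and early Wistar second at 37.8, ahead of 27.2 in late Wistar and 21.9 in late SHRSP. Neighbouring groups in either neuron order overlapped.

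The difference between the materials, for which the gene was chosen, held in each of the 19 rats. The vessel level was 10.2 to 191.9 times the neuron level of the same rat, with a median of 85.6. The fitted fold over all 38 libraries, with the rat as a block, was 70.8 (log2 fold 6.15, SE 0.18). It was the 7th highest among 12117 IDs, whose median was -1.63. By group the fitted fold was 35.1 in early Wistar, 64.8 in late Wistar, 110.2 in early SHRSP and 100.4 in late SHRSP. In the same order Ptgds ranked 19th, 35th, 14th and 27th by fold. The median log2 fold of all IDs was -1.65, -0.36, -3.71 and -0.46, so these folds do not share 1 baseline. Among the 122 to 529 IDs that reached 500 CPM in the vessel library of a rat, Ptgds had the highest ratio of vessel level to neuron level (1 CPM added to the latter) in 9 of the 19 rats. It was among the first 7 in 18 rats, and was 35th in SHRSP 377, whose vessel library held the fewest IDs with a count, 4104.

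The tests below compare strains and stages, which the choice of the gene did not use. The choice was made with earlier results of these data known, so the p-values are no independent support. Within each material edgeR was fitted to all IDs and all 19 libraries, and a call is an adjusted p under 0.05 over all IDs tested. Beside it stands an exact permutation test of the mean log2 level per rat, two-sided and adjusted over 12 tests. With 5 rats against 5 its p cannot go below 0.00794, with 5 against 4 not below 0.0159. No permutation result passed after adjustment.

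In early vessels Ptgds was higher in SHRSP than in Wistar rats. The edgeR fit gave a log2 difference of 1.29 (SE 0.25, adjusted p = 0.000411), where 0.254% of 11011 IDs were called. The mean log2 levels of the rats differed by 1.44, a 2.71-fold difference, with an SE over rats of 0.51, which is wider than edgeR's (exact permutation test, p = 0.0317, adjusted p = 0.127). Relative to the summed level of other IDs enriched in vessels, defined below with its limits, the difference was 0.18 (exact permutation test, p = 0.611). Those IDs were picked from these same libraries and can pass through a group where they are high. The value relative to them therefore decides nothing about the difference in CPM. The call was not made by DESeq2 (adjusted p = 0.116), by limma voom (0.137), with only the early groups in the fit (0.192), with the library set as a term (0.0729) or within the low-share rats (0.0507), nor without rat 340 (0.0652), 377 (0.201) or 383 (0.0534). The difference kept its direction under these settings. It was 1.02 without rat 340, but 1.41 without rat 377 and 1.37 without rat 383, where edgeR's SE widened to 0.46 and 0.44.

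In late vessels the strains could not be separated. The log2 difference was 0.09 (SE 0.26, adjusted p = 1.0 in edgeR), and that of the mean log2 levels 0.10 (SE over rats 0.33; exact permutation test, p = 0.746). At edgeR's threshold 0% of the IDs were called in this contrast, with 102 of 11011 at an unadjusted p under 0.05. DESeq2 called 11 IDs and limma voom 1.

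Late SHRSP vessels held less Ptgds than early SHRSP vessels. The edgeR log2 difference was -1.40 (SE 0.25, adjusted p = 0.00026), against a median of 0.45 over all IDs. Ptgds was the 1 ID that edgeR called in this contrast, 0.00908% of those tested. That count depended on the tool: DESeq2 called 358 IDs, Ptgds not among them, and limma voom 1252, Ptgds among them (adjusted p = 0.0119). The mean log2 levels differed by -1.33, that is 2.52-fold, with an SE over rats of 0.36 (p = 0.00794 by exact permutation, which is the lowest possible here, and 0.0952 when adjusted). All 5 late rats were below all 5 early rats. SHRSP 383, the early rat of the high-share set, was at 3888 CPM and so above the late rats at 1187 to 2485 CPM, all of the same library set. With this rat alone to separate them, stage and library set cannot be told apart in SHRSP vessels. The call was lost in DESeq2 (adjusted p = 0.118) and without a filter on low counts (0.117). It was also lost without rat 374 (0.0606), 377 (0.288), 383 (0.0522) or 384 (0.145). With the library set as a term the log2 difference was -0.93 (unadjusted p = 0.0955, adjusted p = 1.0 in edgeR), again without a call. The log2 difference was -1.13 without rat 374, but -1.50 without rat 377 and -1.34 without rat 383, where edgeR's SE widened to 0.46 and 0.44.

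In Wistar vessels the stage difference did not pass. The edgeR log2 difference was -0.20 (SE 0.26, adjusted p = 1.0), in a contrast with 0.00908% of IDs called, and the mean log2 levels differed by 0.01 (SE over rats 0.48; exact permutation test, p = 0.968). The early Wistar rat of the high-share set, 349, was at 1564 CPM and within the late Wistar range. The interaction of strain and stage, a log2 value of -1.20 (SE 0.35), did not pass in edgeR (unadjusted p = 0.000755, adjusted p = 0.297, 0.00908% of IDs called). It passed in edgeR only without Wistar 368, the early Wistar rat with the high vessel level (log2 value -1.79, adjusted p = 0.00648).

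**Figure D2:**
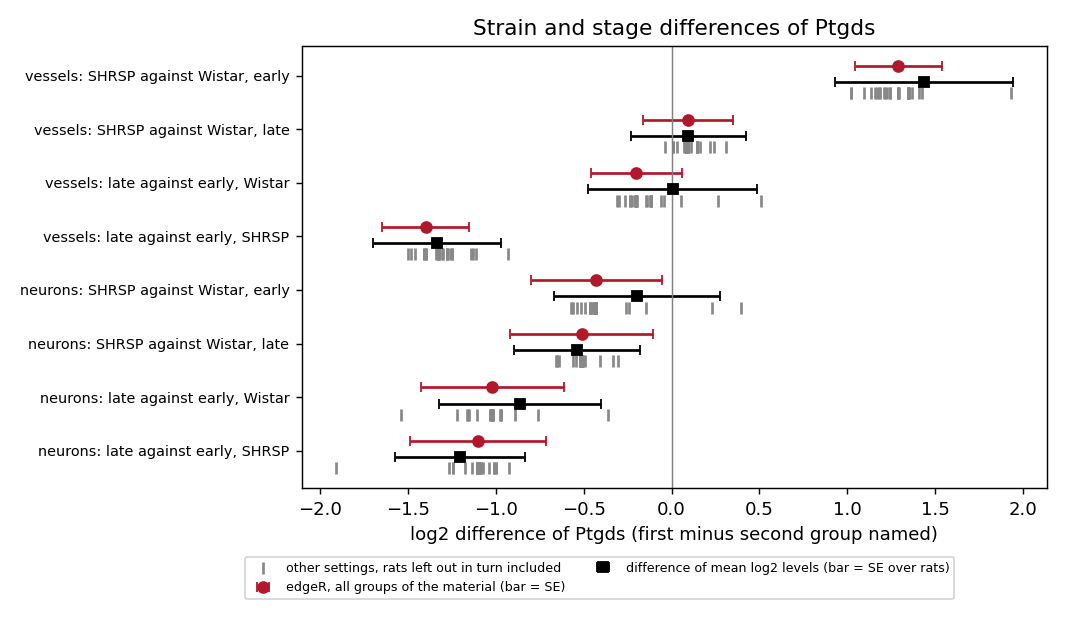
Log2 differences of Ptgds between strains and between stages, in vessels and in neurons: edgeR estimates with their SE (red circles), differences of the mean log2 level with their SE over rats (black squares), and the edgeR, DESeq2 and limma voom estimates under other settings (grey ticks). In vessels the early strain difference stays above 1 and the SHRSP stage difference stays below 0 under all settings drawn, while the other 2 vessel contrasts lie on both sides of 0.

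In neurons the late rats of both strains had lower Ptgds levels, but neither difference passed the edgeR threshold. In SHRSP the log2 difference of late against early was -1.10 (SE 0.39, adjusted p = 0.0721, 8.85% of 10833 IDs called), and in Wistar it was -1.02 (SE 0.41, adjusted p = 0.108, 9.31% called). The permutation tests gave log2 differences of -1.20 (exact p = 0.0238, adjusted p = 0.127) and -0.86 (exact p = 0.0635, adjusted p = 0.152). The SHRSP difference passed with only the SHRSP groups in the fit (adjusted p = 0.0138) and without rat 349 (0.0179) or 383 (0.0334), and the Wistar difference was -0.36 without rat 349. With the library set as a term the differences were larger, -1.91 in SHRSP (unadjusted p = 0.0015, adjusted p = 0.976 in edgeR) and -1.54 in Wistar (unadjusted p = 0.0027, adjusted p = 0.872 in edgeR), and did not pass. The 8 low-share rats held 35.7 to 59.4 CPM, and the 11 high-share rats 10.5 to 42.3 CPM apart from Wistar 349 at 153.1 CPM. The early high-share rats thus lay on either side: SHRSP 383 at 23.1 CPM was among the late SHRSP rats, and Wistar 349 above every other neuron library. With these 2 rats alone to separate them, stage and library set cannot be told apart here.

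No strain difference in neurons passed the test at either stage. The early log2 difference was -0.43 (SE 0.37, adjusted p = 0.812 in edgeR, 0.222% of IDs called), and the late one -0.51 (SE 0.41, adjusted p = 1.0, 0.0369% called). In the early rats the direction turned without rat 349, where the edgeR difference was 0.23 (adjusted p = 0.837) and that of the mean log2 levels 0.20. The latter also turned without rat 383, to 0.038. The 4 low-share rats of each strain were compared after seeing the data. There SHRSP neurons at 46.8 to 59.4 CPM lay above Wistar neurons at 35.7 to 46.3 CPM without overlap. The nearest rats, SHRSP 374 and Wistar 346, overlapped in counting error, with Wilson intervals of 42.6 to 69.1 and 40.1 to 58.1 CPM of the unscaled total. The log2 difference of means was 0.43 (p = 0.0286 by exact permutation, the lowest possible with 4 against 4, and 0.0857 adjusted over 3 tests). In edgeR it was 0.39 (adjusted p = 0.803).

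The neuron library of early Wistar rat 349 was high in Ptgds and in some of the IDs most like it. ENSRNOG00000054890 and ENSRNOG00000011647, described below, also peaked there among the 19 neuron libraries, at 39.1 CPM against 25.0 in the next library and at 14.7 against 8.25. Both lead the likeness over all 38 libraries, which include this one. The ID ranked 2nd in likeness over vessel libraries did not peak there, at 13.5 CPM against 17.4 in the neuron library of rat 380. The other IDs enriched in vessels, defined below, summed to 11392 CPM in the neuron library of rat 349, inside the 7887 to 14744 CPM of the 19 neuron libraries. Ptgds made up 1.33% of that vessel-enriched total there, against 0.107% to 0.407% in the 18 other neuron libraries.

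Across rats, no relation between the vessel level and the neuron level passed the test. Since neuron levels were mostly lower in the high-share set, though with overlap, the relation of the log2 levels was taken within each set. Over the 11 high-share rats Pearson's r was -0.10 (permutation p = 0.782, adjusted p = 0.782 over 2 tests) and Spearman's rho 0.13 (permutation p = 0.713, adjusted p = 0.713), and r was -0.32 without the 2 rats farthest from the median vessel level. Over the 8 low-share rats r was 0.45 (exact permutation p = 0.259, adjusted p = 0.517) and rho 0.52 (exact permutation p = 0.197, adjusted p = 0.393), and r was 0.27 without the 2 farthest rats.

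The vessel-to-neuron ratio was lowest on average in early Wistar and highest in early SHRSP rats, with late SHRSP close to the latter although its vessel level was lower. Its mean log2 value per rat was 5.15 ± 1.35 in early Wistar, 6.02 ± 0.60 in late Wistar, 6.78 ± 0.85 in early SHRSP and 6.65 ± 0.65 in late SHRSP (SD, n = 5, 4, 5 and 5). The lowest ratio belonged to rat 349, with the high neuron level, and the highest of the early Wistar rats to 368, with the high vessel level. Over both stages the log2 ratio was 1.14 higher in SHRSP (SE 0.29), which did not pass over all IDs in edgeR with the rat as a block (unadjusted p = 0.000106, adjusted p = 0.256). There 0% of 12117 IDs were called, 686 had an unadjusted p under 0.05, and DESeq2 called 322 and limma voom 1. It passed only without rat 368 (log2 difference 1.41, adjusted p = 0.0137). The median of all IDs in that contrast was -0.69, and -0.55 with DESeq2-type scaling, where Ptgds stood at 1.31 (adjusted p = 0.0507). Late against early, the ratio differed by 0.37 (SE 0.29, adjusted p = 0.396, 0.0413% called), in a contrast where the median of all IDs was 1.98, and 1.75 with DESeq2-type scaling.

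**Figure D3:**
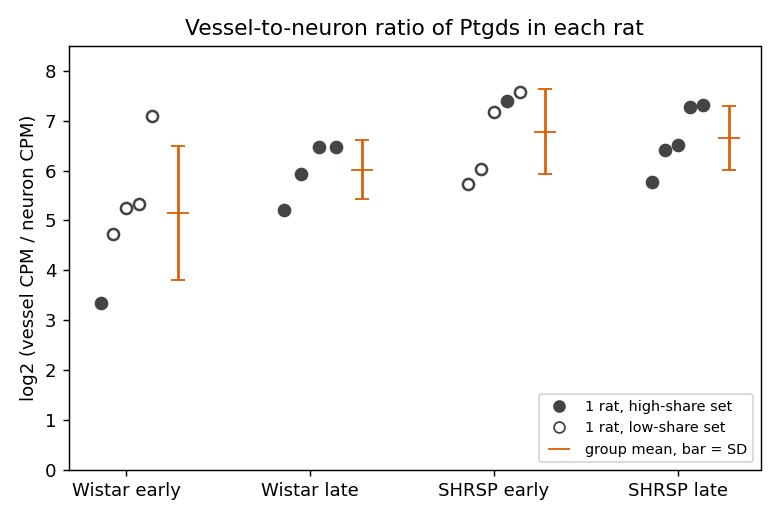
Log2 ratio of the vessel level to the neuron level of Ptgds in each rat, by strain and stage (open points, low-share set; filled points, high-share set), with the group mean and SD beside them in orange. All 19 ratios are above 3, with the lowest at 3.35 in early Wistar rat 349 and the highest at 7.58 in an early SHRSP rat.

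The summed level of other IDs enriched in vessels was also highest in early SHRSP vessels. IDs were picked for this sum by a higher level in vessels than in neurons, with an edgeR adjusted p under 0.05 and a log2 fold of at least 1, which 337 of 12117 IDs (2.78%) met. Ptgds is counted there only by that rule, since the contrast had chosen it. The picking used these same libraries, the IDs carry no names, and abundant IDs weigh most in the sum. It rested on the mean fold of the 4 groups, so an ID can pass through a group where it is high. The order of the groups in the sum can thus follow from the pick, and differences relative to the sum carry the same limit. The 336 others summed to 70002 to 117338 CPM in early SHRSP vessels, 24007 to 66776 in early Wistar, 40921 to 50918 in late Wistar and 36302 to 63697 in late SHRSP vessels. The early SHRSP libraries thus lay above all others in this sum, as they mostly did in Ptgds. Relative to it, the early strain difference of Ptgds was 0.18 in log2 (SE over rats 0.32; exact permutation test, p = 0.611), and the late against early difference in SHRSP -0.54 (SE over rats 0.26; p = 0.0873 by exact permutation, and 0.349 adjusted over 4 tests). Their part in the differences of Ptgds was not tested further. Ptgds made up 2.74% to 7.97% of the vessel-enriched counts per vessel library, with the highest shares in SHRSP 380, Wistar 368 and SHRSP 374 (7.97%, 7.21% and 7.11%).

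**Figure D4:**
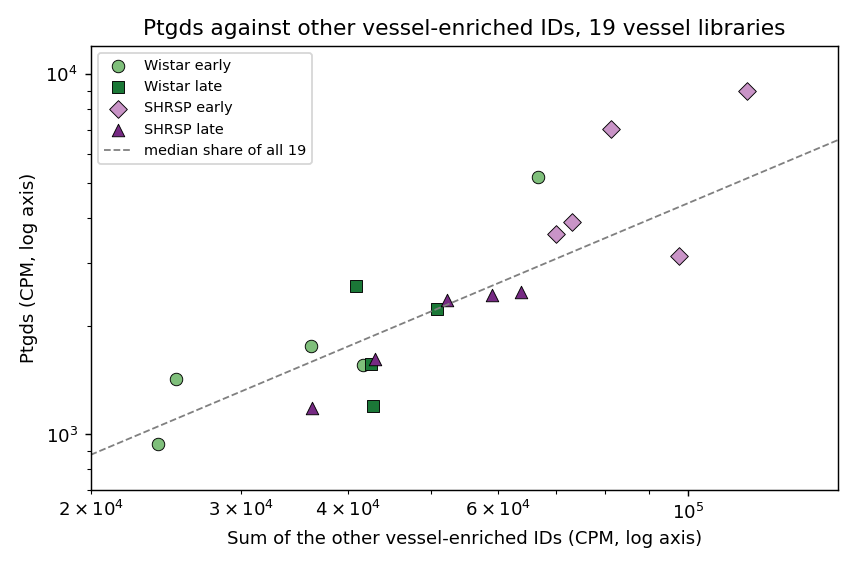
Ptgds level against the summed level of the 336 other vessel-enriched IDs in each of the 19 vessel libraries (CPM, log axes), by strain and stage; the dashed line is the median share of 4.20%. Early SHRSP libraries lie to the upper right, with sums of at least 70002 CPM, and early Wistar rat 368 lies beside them.

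The ID most like Ptgds was ENSRNOG00000054890 by both measures used. Over the 19 vessel libraries, with group means taken off, its log2 level correlated with Ptgds at r = 0.90 (Spearman 0.90), where the median over 5917 IDs was -0.03 and the 99th percentile 0.59. Over all 38 libraries r was 0.97, where libraries share the contrast of materials. Its vessel levels were 1577 ± 715 CPM in early SHRSP, 497 ± 169 in late SHRSP, 278 ± 176 in early Wistar and 264 ± 98.5 in late Wistar. The second over 38 libraries was ENSRNOG00000011647 (r = 0.96), at 326 ± 116 CPM in early SHRSP vessels and 4.43 to 6.65 CPM on average in the neuron groups. These likenesses are descriptions of the libraries.

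The sequence just before the start of the gene is shown as the regulatory stretch nearest to it; promoter activity was not measured. In RefSeq's rat assembly GRCr8 the 250 bases before the annotated start lie at chr3:28682979-28683228 on the minus strand, and capitals mark CANNTG (the E-box) and ATAAATA, letters like those of a TATA box that were picked after reading the sequence.

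Ptgds: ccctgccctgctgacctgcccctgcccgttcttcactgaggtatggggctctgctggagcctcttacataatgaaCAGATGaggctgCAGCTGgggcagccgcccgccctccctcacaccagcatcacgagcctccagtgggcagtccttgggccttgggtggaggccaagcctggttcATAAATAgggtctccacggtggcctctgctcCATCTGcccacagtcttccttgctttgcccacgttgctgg

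The motif CANNTG occurred 3 times in this window, beginning 175, 163 and 40 bases before the start, and 65.5% of 33469 rat promoter windows of the same length held at least 1. ATAAATA occurred once, beginning 71 bases before the start, and was held by 5.56% of the windows. GGGCGG occurred 2 times, both on the opposite strand and overlapping (30.5% of windows), and TATAAA and CCAAT were not among these letters (12.9% and 34.0% of windows); both strands were searched for each.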

How the data were processed

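The authors deposited 1 table of whole-number read counts per Ensembl gene ID for 38 libraries, without normalization. Per the labels' protocols the PicoPure kit gave the RNA and the QuantSeq 3' forward kit the libraries; the latter reads transcript ends, so counts do not grow with transcript length. STAR 2.5.3a and HTSeq 0.6.1 are among the tools that the submitters' processing notes list. Genome build, annotation and strand setting: not given in the sources used here. Reads of genes that overlap Ptgds cannot be separated.

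Counts were fitted in edgeR 4.0.16 (R 4.3.3): filter on low counts by group size, TMM scaling, quasi-likelihood F test with robust shrinkage, Benjamini-Hochberg adjustment over all IDs tested. Within a material the 4 groups of strain and stage were terms. Across materials the rat was a block, with a vessel term per group; the pairing comes from the animal number shared by a rat's 2 titles. SE is the log2 difference over the square root of F. Alternatives were DESeq2 1.42.0, limma 3.58.1 (voom), DESeq2-type scaling, no filter, the most abundant ID left out, only the groups compared, library sets, and each rat left out. The low-share rats alone, and Ptgds relative to other vessel-enriched IDs, were added after seeing the data. The fits were tested on simulated counts.

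Named features were to be Ptgds, members of pathway and marker lists, and the 5 IDs most like it above a mean of 20 CPM; 2 are printed because IDs carry no names, and the lists, with the tests planned on them, could not be run. The gene, lists and tests were chosen with earlier results of these data known. Rats are separate animals, so the permutation p-values measure their spread together with that of capture and library making. The edgeR p-values also draw on the spread of other IDs. For Ptgds in vessels edgeR's SE was 0.25 against 0.51 over rats in the early strain difference. In the SHRSP stage difference it was 0.25 against 0.36. Promoter letters come from RefSeq, matched by the symbol Ptgds (1 match).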

Additional observations from a re-analysis of the deposited data

Results flagged for a closer look

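In early Wistar vessels rat 368 stood at 5190 CPM of Ptgds, while the other 4 rats lay between 942 and 1761 CPM; its gap to the next rat was 0.807 of the group's whole range, above the critical value of 0.71 for 5 samples in Dixon's test. In early Wistar neurons rat 349 stood at 153.1 CPM, while the other 4 lay between 35.7 and 46.3 CPM, a gap of 0.91 of the range. Levels entered this test as CPM, a scale on which high values stand further apart than on log2, and log2 levels were not examined. Over the 12 groups of values examined, chance flags about 1 in 20 where values are normally spread. The neuron library of rat 368 was at 37.8 CPM and the vessel library of rat 349 at 1564 CPM, so neither rat stood apart in its other material.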

How the results depend on the processing

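The higher level in early SHRSP than early Wistar vessels kept its direction but not its call in DESeq2 (1.35), limma voom (1.18), with the library set as a term (1.29), with only these groups (1.18) and in the low-share rats (1.16), was 0.18 per rat relative to other vessel-enriched IDs (1.44 in CPM), and ran from 1.02 to 1.93 with single rats left out. The lower level in late than early SHRSP vessels was not called in DESeq2 (-1.41), without a filter (-1.30) or with the library set as a term (-0.93), was -0.54 per rat relative to other vessel-enriched IDs (-1.33 in CPM), and ran from -1.50 to -1.11. The values relative to other vessel-enriched IDs carry the limit of a pick from these same libraries. The cause was not tested. In neurons the SHRSP stage difference passed with only its groups (-1.10), ran from -1.27 to -0.92 with rats left out, and was -1.91 with the library set as a term, without a call. Under that setting the Wistar one was -1.54, the early strain difference in neurons -0.14 and the stage difference of the ratio 0.97, none of them called.

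Contrasts that did not pass turned direction in places. The vessel stage difference in Wistar was 0.27 with the library set as a term and -0.31 to 0.51 with rats left out, and on the per-rat scale -0.021 with CPM of the library total, -281 in linear CPM, -0.29 relative to other vessel-enriched IDs and -0.23 to 0.39 with rats left out. The early strain difference in neurons was 0.39 in edgeR and 0.43 per rat in the low-share rats, and -0.57 to 0.23 and -0.33 to 0.20 with rats left out. The late strain difference in vessels was -0.079 relative to other vessel-enriched IDs, and -0.038 to 0.31 and -0.10 to 0.27 with rats left out. The stage difference of the ratio in SHRSP was 0.072 with CPM of the library total and -0.39 to 0.094. The interaction of strain and stage ran from -0.74 to 0.13 in neurons. In vessels it ran from -1.79 to -0.93, kept its direction, and passed only without Wistar 368. The strain difference of the ratio ran from 0.92 to 1.41, also kept its direction, and passed only without Wistar 368. With deviations from group means over 19 rats, the correlation of vessel and neuron levels was 0.034 (permutation p = 0.888).

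Without the replicate block the ratio differed by 1.14 between strains and 0.33 between stages, and neither call changed. The high-share rats gave no early strain or stage value within a material, since 1 early rat per strain is left. Counts of called IDs depended on the tool: for the early strain difference in vessels edgeR called 28, DESeq2 486 and limma voom 136, and for the SHRSP stage difference 1, 358 and 1252.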
